A study of Homo sapiens with 18 samples.

Results

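Mitosis is run by a small set of kinases, a microtubule spindle and a ubiquitin ligase, and the 53 genes described here encode its machinery from the decision to enter M phase to the cut between the daughter cells. Cyclin B with CDK1 drives entry, kinetochores hold chromosomes to spindle microtubules, and the spindle checkpoint holds back the anaphase-promoting complex, the ligase that marks cyclin B and securin for destruction, until every chromosome is attached. Most of these genes are transcribed late in the cell cycle. In non-dividing cells and after p53 activation they are known to be repressed together through the p53 target CDKN1A (p21) and the DREAM complex, which binds a promoter element called the CHR with the core letters TTTGAA.

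The members were taken from a written list of 53 gene symbols, and each was read from the 1 probe that carries that symbol alone (where a symbol has several probes, the probe with the highest mean is used). All 53 were found, 1 probe each, among the 17687 symbols and 21448 probes of the arrays. The cells are OCI-AML3, a human acute myeloid leukaemia cell line whose genotype the labels give as wildtype. They were treated for 24 h with 2 µM RG7112, with 500 nM HDM201 or with the solvent DMSO, and 6 arrays were made per group. RG7112 and HDM201 both inhibit MDM2, the ubiquitin ligase that keeps p53 low. A single line, a single time and 1 dose per compound were used, and the doses differ, so the comparison of the compounds is one of these treatments as given. The labels call the replicates biological without saying how the cultures were separated, so the p-values speak only of the spread among these cultures, which may be technical.

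Values are log2 signals, on which a difference of 1 is 2-fold. A gene is said to have fallen or risen where its p from limma stayed under 0.05 after Benjamini-Hochberg adjustment across the 21448 probes. In bulk RNA, fewer cells in G2 and mitosis and less RNA per such cell cannot be told apart. Signals of different probes are not compared, since each probe has its own response.

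Targets of p53 rose with both compounds. CDKN1A, the CDK inhibitor p21, was higher by 3.97 with RG7112 and by 4.10 with HDM201 than with DMSO, and MDM2, itself a p53 target, by 2.57 and 2.58. The arrays also differed in ways the labels do not describe. Replicates 1 to 3 of each group lay above replicates 4 to 6 for CDKN1A and for MDM2, and CDKN1A was higher by 1.65 in DMSO replicates 1 to 3 (adjusted p = 2.0e-06, limma). Of all probes 0.303% differed between the DMSO sets. The signals of RG7112 replicate 3 were squeezed together, with an interquartile range of 3.45 where the rest of the arrays had 3.70 to 3.91, and results with RG7112 are given below with and without it. Of the defining markers, 6 of 7 myeloid genes were measured, with mean signals of 5.45 for MPO to 12.85 for LYZ. Of these 1 rose with RG7112, where 7.9% of all probes did, and 2 with HDM201, where 9.16% did. SPI1, a myeloid transcription factor, rose by 0.34 ± 0.07 with RG7112 (adjusted p = 0.00111) and 0.38 ± 0.07 with HDM201 (adjusted p = 0.00027, limma). With RG7112 SPI1 did not pass within replicates 4 to 6 alone (adjusted p = 0.0639, limma). CSF3R, the G-CSF receptor, rose by 0.64 ± 0.18 with HDM201 (adjusted p = 0.012, and 0.0867 and 0.0503 within replicates 1 to 3 and 4 to 6 alone, limma) and gave 0.49 ± 0.18 with RG7112 (adjusted p = 0.0587), where it passed without RG7112 replicate 3 (adjusted p = 0.00016, limma). Their part in the results below was not tested. Lymphoid markers averaged 3.76 to 6.91 over 4 of 5 genes, those of erythroid cells and megakaryocytes 4.99 to 6.49 over 3 of 4, and those of stroma and epithelium 4.16 to 8.32 over 5 of 5, of which KRT8 rose with RG7112 (adjusted p = 0.0307) and EPCAM fell with HDM201 (adjusted p = 0.00585, limma). KRT8 did not pass in 8 of 29 alternatives, among them those without DMSO replicate 2, 3, 4 or 6 or RG7112 replicate 1 (adjusted p of 0.0521 to 0.0719, limma). EPCAM with HDM201 did not pass within replicates 4 to 6 alone (adjusted p = 0.256, limma).

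The promoters are shown first because the CHR element is the shared regulatory sequence for which this set of genes is known. RefSeq promoters of build GRCh38.p14, each from 250 bases before to 50 after a transcript start, were found for 46 of the 53 genes (61 promoters). Those of AURKA, TPX2, KNL1, TTK, BUB3, UBE2C and CDCA2 are not counted here. The printed stretches run from 120 bases before to 30 after the start, 5′ to 3′ on the gene's strand. Capitals mark TTTGAA. Genes from several stages of mitosis whose promoters hold it come first, and CCNB1 and SPC24, which lack it, come last. CDC25C has 4 promoters in the table, and the 1 whose TTTGAA lies nearest to the start is printed.
CCNB2, chr15:59105026-59105175, plus strand: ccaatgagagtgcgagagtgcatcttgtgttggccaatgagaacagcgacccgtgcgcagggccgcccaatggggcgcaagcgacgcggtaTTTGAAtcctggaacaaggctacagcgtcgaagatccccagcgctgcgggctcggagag
PLK1, chr16:23678769-23678918, plus strand: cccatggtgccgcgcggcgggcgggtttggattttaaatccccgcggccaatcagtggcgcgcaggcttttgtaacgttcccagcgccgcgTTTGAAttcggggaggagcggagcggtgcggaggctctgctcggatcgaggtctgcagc
CDC25C, chr5:138331775-138331924, minus strand: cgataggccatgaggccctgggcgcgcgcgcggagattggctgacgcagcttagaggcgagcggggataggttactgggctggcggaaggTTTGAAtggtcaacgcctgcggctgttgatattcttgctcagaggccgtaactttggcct
CDCA3, chr12:6851257-6851406, minus strand: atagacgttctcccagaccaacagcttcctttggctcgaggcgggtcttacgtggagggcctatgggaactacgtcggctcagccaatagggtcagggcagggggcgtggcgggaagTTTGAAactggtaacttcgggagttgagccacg
BUB1B, chr15:40160949-40161098, plus strand: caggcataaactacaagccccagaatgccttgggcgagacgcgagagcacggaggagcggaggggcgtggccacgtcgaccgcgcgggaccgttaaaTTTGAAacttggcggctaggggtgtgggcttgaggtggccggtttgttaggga
ESPL1, chr12:53268179-53268328, plus strand: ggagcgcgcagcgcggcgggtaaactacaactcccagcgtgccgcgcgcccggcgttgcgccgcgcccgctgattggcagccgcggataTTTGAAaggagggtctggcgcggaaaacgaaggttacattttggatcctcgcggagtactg
PRC1, chr15:90994506-90994655, minus strand: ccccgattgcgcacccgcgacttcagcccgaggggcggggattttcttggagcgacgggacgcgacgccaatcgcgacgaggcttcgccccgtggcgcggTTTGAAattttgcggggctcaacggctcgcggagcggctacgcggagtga
MKI67, chr10:128126394-128126543, minus strand: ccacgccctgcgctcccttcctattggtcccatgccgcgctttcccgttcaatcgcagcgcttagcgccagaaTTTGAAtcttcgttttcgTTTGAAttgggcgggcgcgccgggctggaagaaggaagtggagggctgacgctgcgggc
CCNB1, chr5:69167030-69167179, plus strand: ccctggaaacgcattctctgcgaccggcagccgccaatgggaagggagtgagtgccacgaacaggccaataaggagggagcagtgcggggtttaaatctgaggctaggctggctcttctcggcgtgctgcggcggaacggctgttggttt
SPC24, chr19:11155753-11155902, minus strand: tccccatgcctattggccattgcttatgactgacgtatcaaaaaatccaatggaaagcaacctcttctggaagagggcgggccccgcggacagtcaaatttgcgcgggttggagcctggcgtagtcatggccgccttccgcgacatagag

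TTTGAA was searched on both strands, where the reverse reads TTCAAA. It was present in 36 of the 61 promoters (59.0%), against 15.2% of all 35116 promoters in the table. Within 50 bases of the start it was present in 30 of 61 (49.2%), against 4.62% of all. Allowing the variant TTCGAA as well, 32 of the 46 genes had a match within 50 bases of a start (69.6%), against 6.24% of all genes in the table. The 14 genes without one in this window were ASPM, AURKB, BORA, CCNA2, CCNB1, CDC20, CKAP2, GAS2L3, NEK2, PTTG1, SGO2, SPC24, TACC3 and TOP2A. Of these, ASPM, BORA, CDC20 and TOP2A held TTTGAA farther off, the nearest at 113, 177, 65 and 151 bases before the start. CCAAT, the letters bound by the factor NF-Y and known beside many CHR elements, was present on either strand in 43 of 61 promoters (70.5%), against 34.6% of all. These matches are letters in a window and not measured binding. Other forms of the CHR were not searched, so a gene without a match is not shown to lack the element.

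Every one of the 53 genes fell with each compound. In RG7112 against DMSO 53 of 53 fell, where 9.61% of all probes did, and in HDM201 against DMSO 53 of 53 fell, where 9.64% did. None rose, where 7.9% of all probes did with RG7112 and 9.16% with HDM201. The median change was -1.22 with RG7112 (2.34-fold lower) and -1.41 with HDM201 (2.66-fold lower), while the median of all probes was 0.03 and 0.02. A fall of at least 2-fold was reached by 40 of 53 genes with RG7112 (1.33% of all probes) and by 46 of 53 with HDM201 (1.71%). Among the 500 probes with the lowest changes, 50 were members in each comparison, and among the lowest 100 there were 15 with RG7112 and 16 with HDM201. Both comparisons use the same 6 DMSO arrays and so are not independent of each other.

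The arrays of the groups hardly met. For 51 of 53 genes all 6 RG7112 arrays lay below all 6 DMSO arrays, which holds for 5.61% of all probes. The exceptions were CKAP2, whose highest RG7112 signal was 8.27 against a lowest DMSO signal of 7.79, and SGO2, at 6.83 against 6.82. All 6 HDM201 arrays lay below all 6 DMSO arrays for 53 of 53 genes (6.92% of all probes). Without RG7112 replicate 3 all 53 genes still fell with RG7112 (8.63% of probes), the median change was -1.07, and 33 genes fell at least 2-fold (1.05% of probes).

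**Figure D1:**
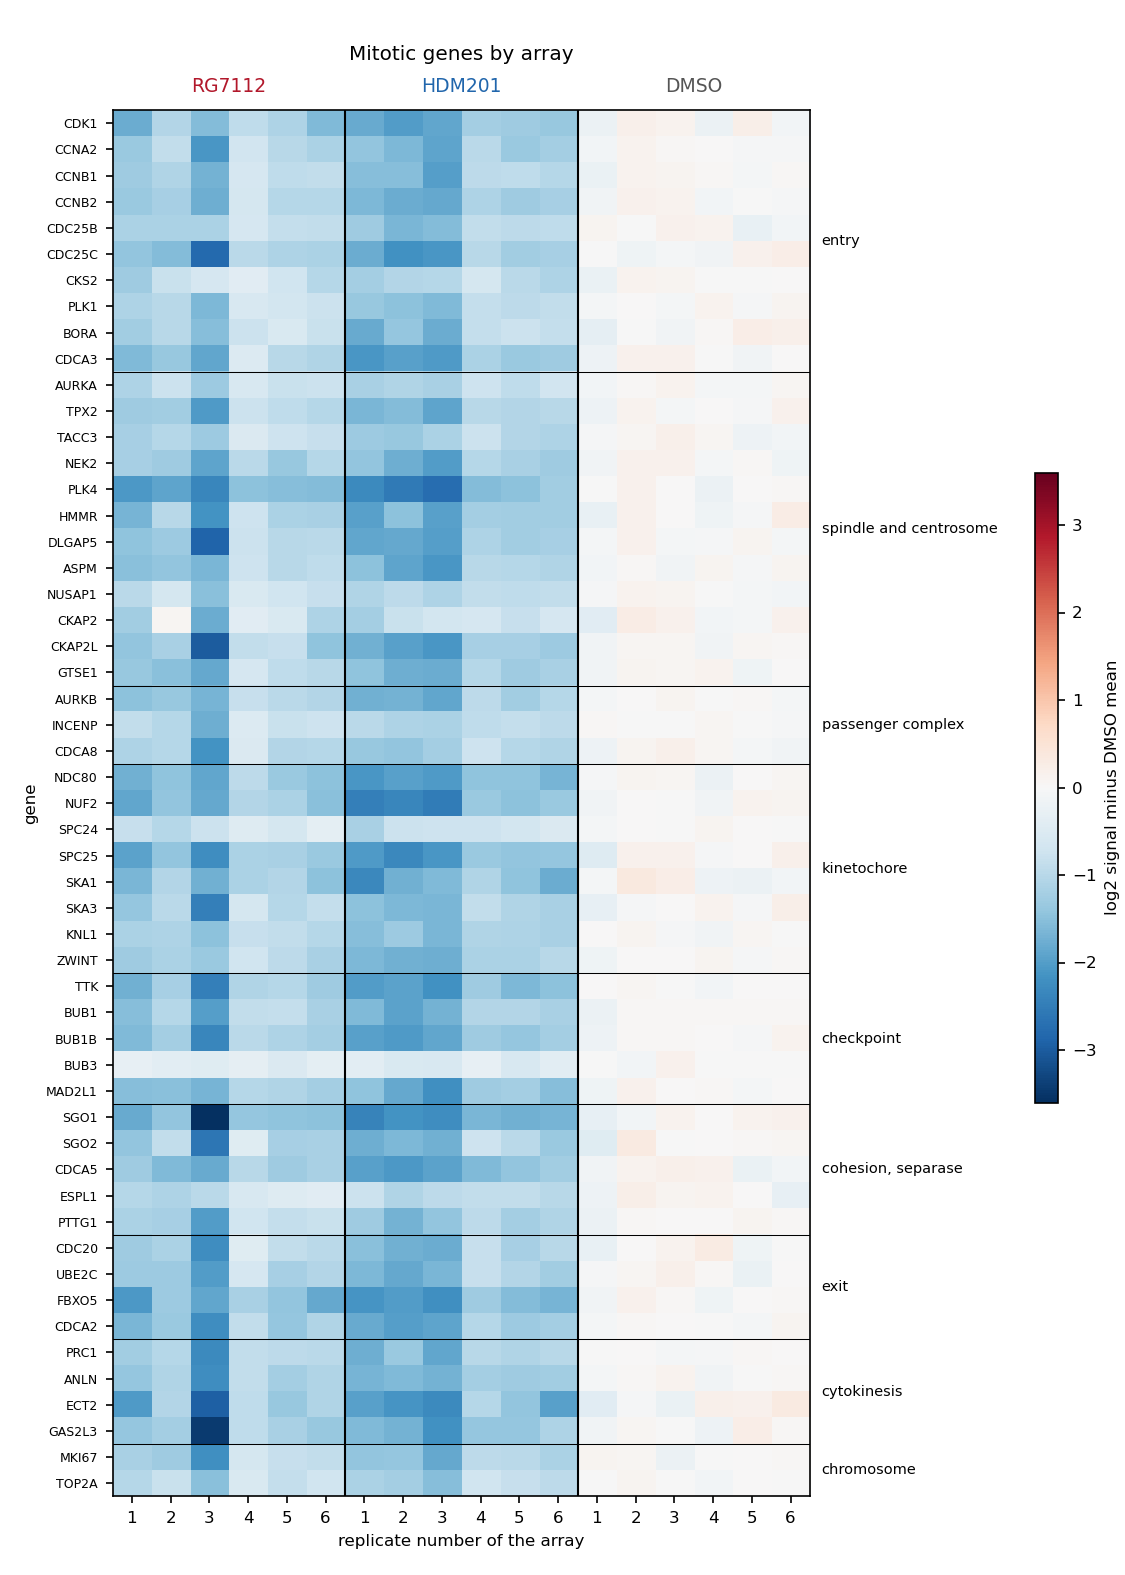
Log2 signal of each of the 53 genes (rows, grouped by role) on each of the 18 arrays (columns, RG7112, HDM201 and DMSO, replicates 1 to 6), minus the gene's mean over the 6 DMSO arrays. Blue is below the DMSO mean and red above it, and the 12 treated columns are blue for nearly all genes, deepest in RG7112 replicate 3 and palest in RG7112 replicate 4.

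In what follows the 3 signals given for a gene in a group are the lowest, the median and the highest of its 6 arrays. Changes are differences of group means with their standard error (SE), n = 6 per group. The SE comes from a spread estimated over all 3 groups, so it is the same for both compounds. That of a change with HDM201 thus also carries the spread of the RG7112 arrays, replicate 3 included.

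Entry into mitosis was represented by 10 genes, and all 10 fell with both compounds, by a median of -1.12 with RG7112 and -1.37 with HDM201. CDK1, the kinase that drives entry, gave 7.39, 7.84 and 8.26 on RG7112 arrays, 7.17, 7.59 and 7.95 on HDM201 arrays and 8.96, 9.20 and 9.38 on DMSO arrays. The treated arrays all lay below the DMSO arrays. Its change was -1.34 ± 0.16 with RG7112 (adjusted p = 5.14e-06) and -1.60 ± 0.16 with HDM201 (adjusted p = 3.46e-07, limma). CCNB1, the cyclin that activates CDK1 at entry, had signals of 8.03, 8.73 and 9.11 with RG7112 and 7.73, 8.44 and 8.80 with HDM201, against 9.48, 9.76 and 9.85 with DMSO. CCNB2, its close relative at the Golgi, read 8.19, 8.81 and 9.30 after RG7112 and 8.10, 8.48 and 8.83 after HDM201, against 9.80, 9.92 and 10.09 after DMSO. Neither cyclin overlapped with DMSO in either treatment, and the changes were -1.07 ± 0.18 and -1.16 ± 0.15 with RG7112, and -1.33 ± 0.18 and -1.47 ± 0.15 with HDM201. CCNA2, the cyclin of S phase and early mitosis, measured 8.60, 9.63 and 10.02 with RG7112 and 8.82, 9.33 and 9.73 with HDM201, against 10.62, 10.69 and 10.83 with DMSO, again without overlap. It was 2.28-fold lower with RG7112 and 2.66-fold lower with HDM201.

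PLK1, the kinase that promotes CDK1 activation and centrosome maturation, showed 10.39, 11.11 and 11.43 on RG7112 arrays and 10.42, 10.84 and 11.15 on HDM201 arrays, against 11.93, 11.98 and 12.12 on DMSO arrays. The groups did not overlap with DMSO, and the change was -0.96 ± 0.16 with RG7112 and -1.19 ± 0.16 with HDM201. BORA, which helps AURKA switch PLK1 on, changed by -0.98 ± 0.19 with RG7112 and -1.25 ± 0.19 with HDM201. The phosphatases that remove the inhibitory phosphates from CDK1 fell as well. CDC25C changed by -1.50 ± 0.25 and CDC25B by -0.96 ± 0.14 with RG7112, and by -1.59 ± 0.25 and -1.21 ± 0.14 with HDM201. CDCA3, an F-box protein linked to the destruction of the entry inhibitor WEE1, changed by -1.23 ± 0.20 with RG7112 and -1.64 ± 0.20 with HDM201, and CKS2, a small CDK-binding subunit, by -0.81 ± 0.12 and -1.01 ± 0.12. The span within this stage ran from CKS2 to CDC25C with RG7112, and from CKS2 to CDCA3 with HDM201.

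The spindle and centrosome genes numbered 12, and all 12 fell with both compounds, with medians of -1.21 for RG7112 and -1.42 for HDM201. PLK4, the kinase that starts centriole duplication, had the lowest change of all 53 genes with HDM201 and the next to lowest with RG7112. Its signals were 6.27, 6.89 and 7.15 with RG7112 and 5.87, 6.69 and 7.38 with HDM201, against 8.42, 8.63 and 8.79 with DMSO. The highest treated array lay more than 1 log2 unit below the lowest DMSO array, and the change was -1.82 ± 0.21 with RG7112 (adjusted p = 4.56e-06) and -1.98 ± 0.21 with HDM201 (adjusted p = 9.02e-07, limma). AURKA, the kinase of centrosome maturation and spindle poles, gave 8.81, 9.33 and 9.54 with RG7112 and 8.96, 9.13 and 9.43 with HDM201, against 10.04, 10.11 and 10.24 with DMSO. It fell without overlap but by less, at -0.89 ± 0.11 with RG7112 and -0.95 ± 0.11 with HDM201, under 2-fold in both. TPX2, which activates AURKA on spindle microtubules, changed by -1.21 ± 0.18 with RG7112 and -1.36 ± 0.18 with HDM201.

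The other 9 spindle genes ranged widely in RG7112, and DLGAP5 and CKAP2L were among those most moved by RG7112 replicate 3. DLGAP5, which bundles kinetochore fibres, changed by -1.40 ± 0.25 with RG7112 (-1.10 without replicate 3) and -1.54 ± 0.25 with HDM201. CKAP2L, a spindle protein, changed by -1.46 ± 0.26 with RG7112 (-1.15 without replicate 3) and -1.58 ± 0.26 with HDM201. HMMR, a microtubule-binding spindle protein, changed by -1.32 ± 0.20 with RG7112 and -1.52 ± 0.20 with HDM201. NEK2, the kinase that lets centrosomes separate, changed by -1.29 ± 0.16 and -1.44 ± 0.16, and ASPM, a spindle pole protein, by -1.21 ± 0.18 and -1.43 ± 0.18, with RG7112 and HDM201 in that order. GTSE1, a microtubule-associated protein that also restrains p53, changed by -1.20 ± 0.17 with RG7112 and -1.41 ± 0.17 with HDM201. TACC3, a partner of the microtubule polymerase at spindle fibres, changed by -0.94 ± 0.12 with RG7112 and -1.13 ± 0.12 with HDM201, and NUSAP1, which bundles microtubules near chromosomes, by -0.87 ± 0.12 and -0.97 ± 0.12. CKAP2, a microtubule-stabilising protein, was the gene with the highest adjusted p of the 53 in both comparisons, -0.84 ± 0.22 with RG7112 (adjusted p = 0.011) and -0.79 ± 0.22 with HDM201 (adjusted p = 0.0147, limma). Its SD was 0.67 on RG7112 arrays, 0.24 on HDM201 arrays and 0.25 on DMSO arrays, and both SEs share that spread.

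**Figure D2:**
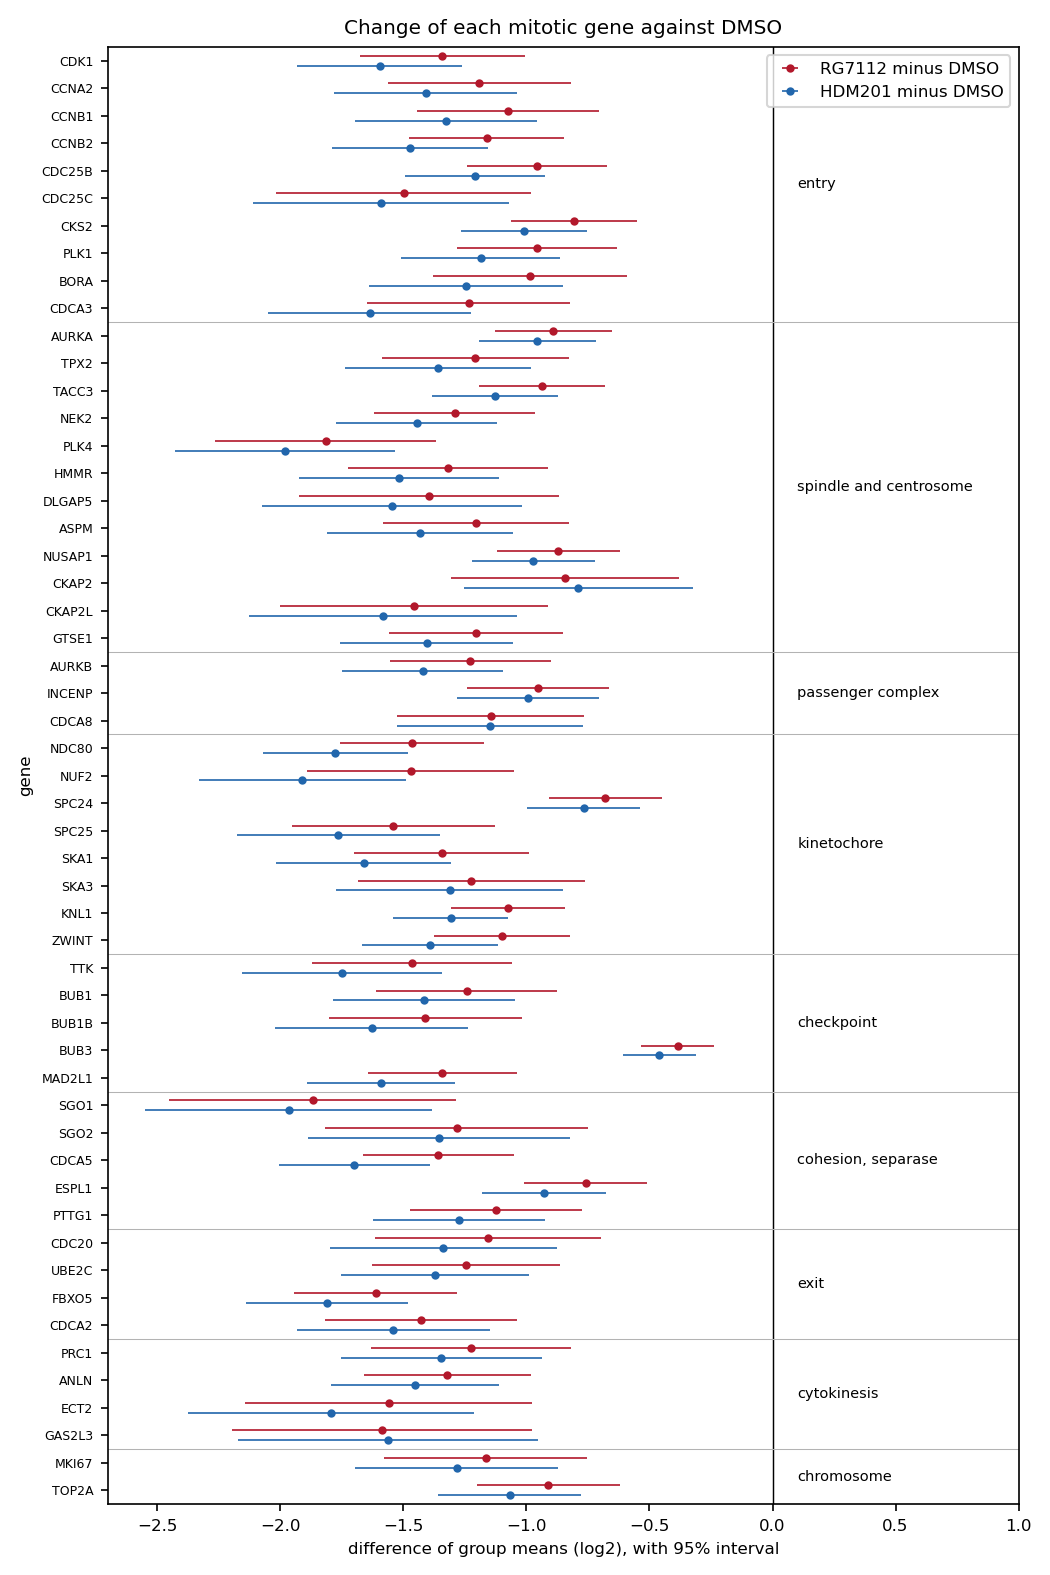
Difference of group means (log2) with its 95% interval for each of the 53 genes, RG7112 minus DMSO in red and HDM201 minus DMSO in blue, grouped by role. All intervals lie below 0, the lowest estimates are those of PLK4 and SGO1, and the highest is that of BUB3.

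The chromosomal passenger complex places AURKB on centromeres and on the midzone, where it corrects faulty attachments. All 3 genes measured fell. AURKB, its kinase, gave 7.40, 7.85 and 8.23 with RG7112 and 7.19, 7.58 and 8.13 with HDM201, against 9.00, 9.06 and 9.15 with DMSO, with no overlap. AURKB changed by -1.23 ± 0.16 with RG7112 and -1.42 ± 0.16 with HDM201. CDCA8 (borealin) changed by -1.14 ± 0.18 and -1.15 ± 0.18, and INCENP, the scaffold, by -0.95 ± 0.14 and -0.99 ± 0.14, with RG7112 and HDM201 in that order.

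Kinetochores were represented by 8 genes, which all fell, by medians of -1.28 with RG7112 and -1.53 with HDM201. The NDC80 complex is the main microtubule hook, and its subunits changed by unequal amounts. NDC80 itself read 7.37, 7.77 and 8.31 on RG7112 arrays and 7.13, 7.42 and 7.79 on HDM201 arrays, against 9.02, 9.27 and 9.33 on DMSO arrays. Its partner NUF2 read 7.28, 7.69 and 8.11 with RG7112 and 6.64, 7.24 and 7.81 with HDM201, against 9.01, 9.16 and 9.28 with DMSO. Both lay below DMSO on every treated array, with changes of -1.47 ± 0.14 for NDC80 and -1.47 ± 0.20 for NUF2 with RG7112, and -1.78 ± 0.14 and -1.91 ± 0.20 with HDM201. SPC24 and SPC25 form the other end of the complex, toward the centromere. SPC24 showed 7.98, 8.31 and 8.66 with RG7112 and 7.84, 8.26 and 8.48 with HDM201, against 8.93, 9.00 and 9.12 with DMSO. That is no overlap but the smallest change of any gene except BUB3, -0.68 ± 0.11 with RG7112 and -0.77 ± 0.11 with HDM201, whereas SPC25 changed by -1.54 ± 0.20 and -1.76 ± 0.20.

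Of the remaining kinetochore genes, SKA1 and SKA3 belong to the complex that keeps kinetochores on moving microtubule ends. SKA1 changed by -1.34 ± 0.17 with RG7112 and -1.66 ± 0.17 with HDM201, and SKA3 by -1.22 ± 0.22 and -1.31 ± 0.22. KNL1, the platform on which checkpoint proteins gather, changed by -1.08 ± 0.11 with RG7112 and -1.31 ± 0.11 with HDM201. ZWINT, which binds KNL1, changed by -1.10 ± 0.13 with RG7112 and -1.39 ± 0.13 with HDM201.

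The spindle checkpoint genes measured were 5, and all 5 fell with both compounds. TTK (MPS1), the kinase that starts checkpoint signalling at unattached kinetochores, gave 7.42, 8.65 and 8.87 with RG7112 and 7.71, 8.13 and 8.62 with HDM201, against 9.81, 9.90 and 9.96 with DMSO. The groups did not overlap with DMSO, and TTK changed by -1.46 ± 0.20 with RG7112 (adjusted p = 1.79e-05) and -1.75 ± 0.20 with HDM201 (adjusted p = 1.25e-06, limma). BUB1, the kinase that recruits the other checkpoint proteins, read 8.00, 8.88 and 9.12 with RG7112 and 8.05, 8.60 and 8.93 with HDM201, against 9.77, 10.02 and 10.03 with DMSO. BUB1B (BUBR1), part of the inhibitor that binds CDC20, read 7.66, 8.78 and 9.02 with RG7112 and 7.96, 8.37 and 8.79 with HDM201, against 9.81, 10.03 and 10.13 with DMSO. Both were lower on every treated array than on any DMSO array, with changes of -1.24 ± 0.18 and -1.41 ± 0.19 with RG7112, and -1.42 ± 0.18 and -1.63 ± 0.19 with HDM201. MAD2L1 (MAD2), the protein that changes shape to capture CDC20, gave 7.04, 7.33 and 7.67 with RG7112 and 6.48, 7.22 and 7.47 with HDM201, against 8.55, 8.72 and 8.86 with DMSO. It changed by -1.34 ± 0.14 with RG7112 and -1.59 ± 0.14 with HDM201, without overlap.

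BUB3 was the member that changed least. It binds BUB1 and BUBR1 and brings them to the kinetochore. Its signals were 10.41, 10.56 and 10.63 with RG7112 and 10.36, 10.46 and 10.63 with HDM201, against 10.84, 10.92 and 11.07 with DMSO. The groups still did not overlap with DMSO, and BUB3 fell by 0.39 with RG7112 (SE 0.07, 1.31-fold, adjusted p = 0.000578) and by 0.46 with HDM201 (SE 0.07, 1.38-fold, adjusted p = 6.42e-05, limma). Of the 5 checkpoint genes it was the only one to change by under 2-fold.

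Cohesion and its release were represented by 5 genes, which all fell. SGO1 (shugoshin 1) guards the cohesin at centromeres until anaphase and had the lowest change of the 53 with RG7112. Its signals were 5.58, 7.75 and 7.83 with RG7112 and 6.83, 7.29 and 7.59 with HDM201, against 8.93, 9.28 and 9.37 with DMSO. No treated array reached the DMSO range, and the change was -1.87 ± 0.28 with RG7112 (adjusted p = 6.41e-05) and -1.97 ± 0.28 with HDM201 (adjusted p = 2.38e-05, limma). The lowest RG7112 signal is that of replicate 3, and without it the change with RG7112 was -1.51. SGO2, its relative, changed by -1.28 ± 0.26 with RG7112 and -1.35 ± 0.26 with HDM201. CDCA5 (sororin), which stabilises cohesin on chromosomes, changed by -1.36 ± 0.15 with RG7112 and -1.70 ± 0.15 with HDM201.

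Securin and separase form the lock and the cutter of cohesin. PTTG1 (securin) gave 6.69, 7.70 and 7.97 with RG7112 and 6.99, 7.45 and 7.77 with HDM201, against 8.50, 8.73 and 8.79 with DMSO. ESPL1 (separase) gave 7.77, 8.09 and 8.45 with RG7112 and 7.80, 7.95 and 8.09 with HDM201, against 8.59, 8.93 and 9.08 with DMSO. Both fell without overlap. PTTG1 changed by -1.12 ± 0.17 with RG7112 and -1.27 ± 0.17 with HDM201. ESPL1 changed by -0.76 ± 0.12 with RG7112 and -0.93 ± 0.12 with HDM201, under 2-fold in both.

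Mitotic exit genes, 4 in number, all fell. CDC20, the activator of the anaphase-promoting complex and the target of the checkpoint, measured 8.73, 9.92 and 10.53 with RG7112 and 9.18, 9.62 and 10.15 with HDM201, against 10.69, 10.96 and 11.27 with DMSO. The treated arrays stayed below DMSO, and the change was -1.16 ± 0.22 with RG7112 and -1.34 ± 0.22 with HDM201. UBE2C, the E2 enzyme that starts ubiquitin chains for the complex, changed by -1.25 ± 0.18 with RG7112 and -1.37 ± 0.18 with HDM201. FBXO5 (EMI1), which inhibits the complex until mitosis, was among the 4 lowest changes in both comparisons. It read 6.59, 7.04 and 7.50 with RG7112 and 6.47, 6.83 and 7.37 with HDM201, against 8.51, 8.70 and 8.81 with DMSO. No treated array overlapped with DMSO, and FBXO5 changed by -1.61 ± 0.16 with RG7112 (adjusted p = 5.06e-07) and -1.81 ± 0.16 with HDM201 (adjusted p = 6.64e-08, limma). CDCA2, which targets a phosphatase to anaphase chromatin, changed by -1.43 ± 0.19 with RG7112 and -1.54 ± 0.19 with HDM201.

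Cytokinesis genes, also 4, all fell. GAS2L3, which links actin and microtubules at the midbody, had a lower estimate with RG7112 than with HDM201, as only CKAP2 also had. It gave 4.79, 6.94 and 7.31 with RG7112 and 6.05, 6.73 and 7.13 with HDM201, against 8.05, 8.25 and 8.46 with DMSO. Every treated array was below every DMSO array, and the change was -1.59 ± 0.29 with RG7112 and -1.56 ± 0.29 with HDM201. RG7112 replicate 3 supplied the lowest signal, and the change without it was -1.21, and GAS2L3 was then no longer among the 4 lowest changes. ECT2, the exchange factor that switches on RhoA at the furrow, changed by -1.56 ± 0.28 with RG7112 and -1.79 ± 0.28 with HDM201. ANLN (anillin), the furrow scaffold, changed by -1.32 ± 0.16 and -1.45 ± 0.16, and PRC1, which bundles midzone microtubules, by -1.22 ± 0.20 and -1.35 ± 0.20, with RG7112 and HDM201 in that order.

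MKI67 and TOP2A act on the chromosomes themselves, and both fell. MKI67 encodes Ki-67, the proliferation marker that coats mitotic chromosomes, and it read 9.07, 10.25 and 10.66 with RG7112 and 9.45, 10.01 and 10.34 with HDM201, against 11.06, 11.31 and 11.39 with DMSO. TOP2A, the topoisomerase that untangles sister chromatids, read 9.53, 10.21 and 10.49 with RG7112 and 9.52, 9.99 and 10.32 with HDM201, against 10.95, 11.04 and 11.15 with DMSO. Neither overlapped with DMSO. MKI67 changed by -1.16 ± 0.20 with RG7112 and -1.28 ± 0.20 with HDM201, and TOP2A by -0.91 ± 0.14 and -1.07 ± 0.14.

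Without RG7112 replicate 3 each of these genes still fell with RG7112, with changes of -1.71 for PLK4 to -0.37 for BUB3. Among the entry genes CDK1 then changed by -1.30, CCNB1 by -0.95, CCNB2 by -1.05, CCNA2 by -1.01 and PLK1 by -0.82. Of the spindle and passenger kinases AURKA changed by -0.81 and AURKB by -1.14, and at the kinetochore NDC80 changed by -1.39, NUF2 by -1.40 and SPC24 by -0.66. The checkpoint genes TTK, BUB1, BUB1B and MAD2L1 changed by -1.26, -1.09, -1.22 and -1.28. Securin (PTTG1) changed by -0.95 and separase (ESPL1) by -0.72, CDC20 by -0.94 and FBXO5 by -1.56, and MKI67 by -0.95 and TOP2A by -0.79. The array thus enlarged most of these estimates and ended no call, and 7 genes dropped under a 2-fold fall without it.

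Genes with and without a match to TTTGAA or TTCGAA near their start both fell. Since other forms of the CHR were not searched, those without a match may still hold the element. The 32 genes with TTTGAA or TTCGAA within 50 bases of a start had a median change of -1.32 with RG7112 (range -1.87 to -0.76) and -1.53 with HDM201 (range -1.98 to -0.93). The 14 genes without one had -1.14 with RG7112 (range -1.59 to -0.68) and -1.33 with HDM201 (range -1.56 to -0.77). The ranges overlap, no test was made, and ASPM, BORA, CDC20 and TOP2A among the 14 hold TTTGAA farther from the start. Of the genes printed above, SPC24 and CCNB1 have neither sequence in that window, and their changes with HDM201 were -0.77 ± 0.11 and -1.33 ± 0.18, against -1.63 ± 0.19 for BUB1B and -0.93 ± 0.12 for ESPL1, which have it.

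HDM201 gave lower estimates than RG7112 for 51 of 53 genes, but none passed the test of that difference. The median of HDM201 minus RG7112 was -0.18 over the 53 genes and 0.00 over all probes, and 49% of all probes had a negative estimate. With limma 0 of 53 genes and 0% of all probes passed, and 5 genes (NUF2, NDC80, CDCA5, ZWINT and KNL1) had an unadjusted p under 0.05, where 3.49% of all probes did. NUF2 had the lowest estimate, -0.44 ± 0.20 (SE, 95% interval -0.86 to -0.02, adjusted p = 0.991, limma). The 2 positive estimates were those of CKAP2 (0.05) and GAS2L3 (0.02). For the other 48 genes the 95% interval included 0, and that of GAS2L3 was the widest. These intervals leave room for a difference of either sign, so the test does not show that the compounds act alike.

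Leaving out RG7112 replicate 3, the array in which 46 of 53 genes had their lowest RG7112 signal (30.8% of all probes), shifted this comparison. All 53 estimates of HDM201 minus RG7112 were then negative (50.5% of all probes), with a median of -0.33. An unadjusted p under 0.05 was reached by 33 of 53 genes, against 4.21% of all probes, and the lowest estimate was that of CDCA3, at -0.53. Since the omitted array held the lowest RG7112 signal of most genes, leaving it out lowers their estimates by itself. The 53 genes tend to move together from array to array, so counts over them here and above are not counts of separate results. No gene passed after adjustment with limma, where the adjusted p was 1.00.

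**Figure D3:**
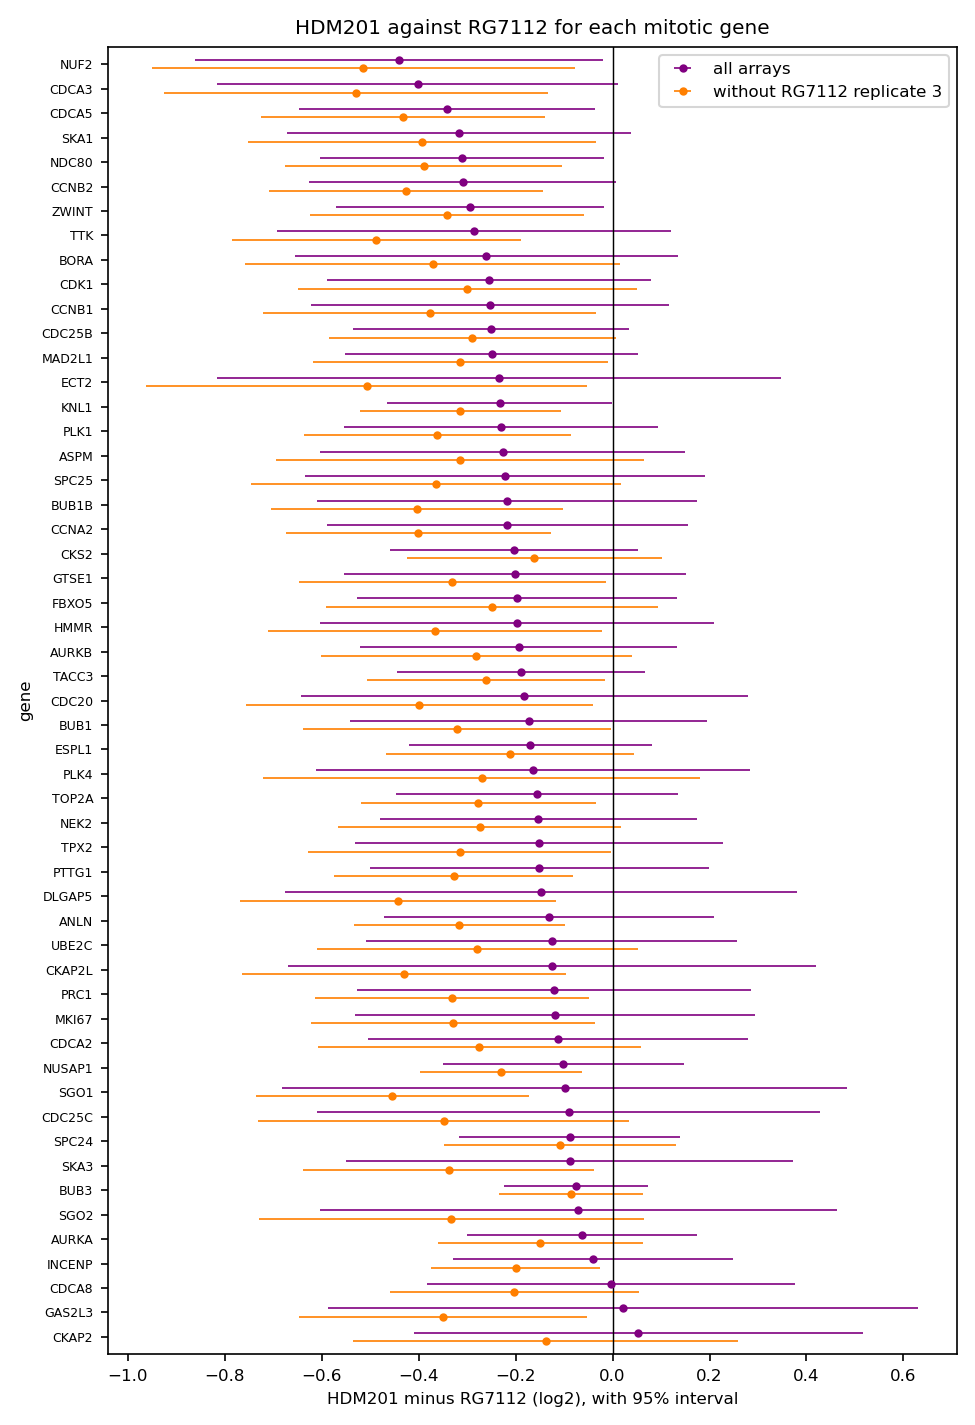
HDM201 minus RG7112 (log2) with 95% intervals for the 53 genes, ordered by estimate, over all arrays in purple and without RG7112 replicate 3 in orange. With all arrays 51 of 53 estimates lie below 0, and without that replicate all 53 do.

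The estimated fall was larger in replicates 1 to 3 than in replicates 4 to 6 with both compounds. The mean of the 53 genes on an array, minus their DMSO mean, was -1.38, -1.14 and -1.94 in RG7112 replicates 1 to 3, against -0.77, -0.99 and -1.07 in RG7112 replicates 4 to 6. It was -1.62, -1.65 and -1.74 in HDM201 replicates 1 to 3, against -1.03, -1.16 and -1.16 in HDM201 replicates 4 to 6. The sets do not overlap in either treatment. On DMSO arrays the same mean lay between -0.14 and 0.08 over both sets, and the median difference between DMSO replicates 1 to 3 and 4 to 6 was 0.00. With limma 0 of 53 genes differed between the DMSO sets (0.303% of all probes did), and 1 of 53 had an unadjusted p under 0.05 (5.86% of all probes).

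**Figure D4:**
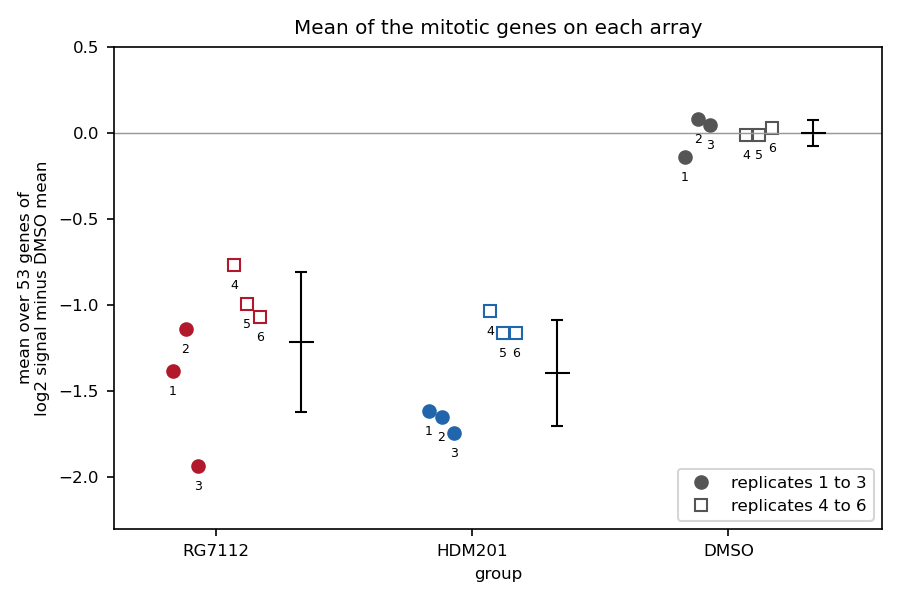
Mean over the 53 genes of log2 signal minus DMSO mean on each array, numbered by replicate, with filled circles for replicates 1 to 3 and open squares for replicates 4 to 6. Black bars are the group mean ± SD over 6 arrays, and in each treated group the 3 circles lie below the 3 squares while on DMSO arrays all lie near 0.

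Within each set of replicates nearly all genes still fell. Within replicates 1 to 3, 53 of 53 genes fell with RG7112 (8.64% of all probes) and 52 of 53 with HDM201 (8.89%). Within replicates 4 to 6, 50 of 53 fell with RG7112 (3.87% of all probes) and 52 of 53 with HDM201 (4.46%). CKAP2 did not pass with HDM201 in either set, and CKAP2, SGO2 and GAS2L3 did not pass with RG7112 in replicates 4 to 6. The median change with RG7112 was -1.51 within replicates 1 to 3 (-1.28 within replicates 1 and 2 alone, chosen after the data were seen), against -0.94 within replicates 4 to 6. With HDM201 the medians were -1.69 within replicates 1 to 3 and -1.12 within replicates 4 to 6.

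The difference of the change between the sets was tested for each gene, although genes that move together from array to array are not separate results. With HDM201 all 53 estimates were below 0 (51.1% of all probes), with a median of -0.58, and 30 of 53 had an unadjusted p under 0.05 (6.13% of all probes). After adjustment 2 of 53 passed, where 0.149% of all probes did. PLK4 changed by -2.58 with HDM201 within replicates 1 to 3 and by -1.38 within replicates 4 to 6, a difference of -1.20 ± 0.20 (SE, adjusted p = 0.0206, limma). NUF2 changed by -2.40 within replicates 1 to 3 and by -1.42 within replicates 4 to 6, a difference of -0.98 ± 0.19 (SE, adjusted p = 0.0497, limma). Neither call held in all refits that left out 1 array. PLK4 no longer passed without DMSO replicate 2 (adjusted p = 0.0664) or without HDM201 replicate 2, 3 or 6 (0.0571, 0.0803 and 0.0722, limma), and NUF2 no longer passed in 16 of 24 alternatives, with an adjusted p of 0.00576 to 0.185 over them (limma).

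With RG7112 the difference between the sets had a median of -0.54 and was below 0 for 52 of 53 genes (50.7% of all probes). None of the 53 passed with limma (0.0373% of all probes did), while 30 had an unadjusted p under 0.05 (6.1% of all probes). Without RG7112 replicate 3 the median was -0.27, 49 of 53 estimates were below 0 (50.1% of all probes), 0 of 53 passed (0.0466% of all probes), and 14 of 53 had an unadjusted p under 0.05 (6.13% of all probes). BUB3 was the gene above 0 with all arrays, at 0.00, changing by -0.38 within replicates 1 to 3 and -0.39 within replicates 4 to 6.

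**Figure D5:**
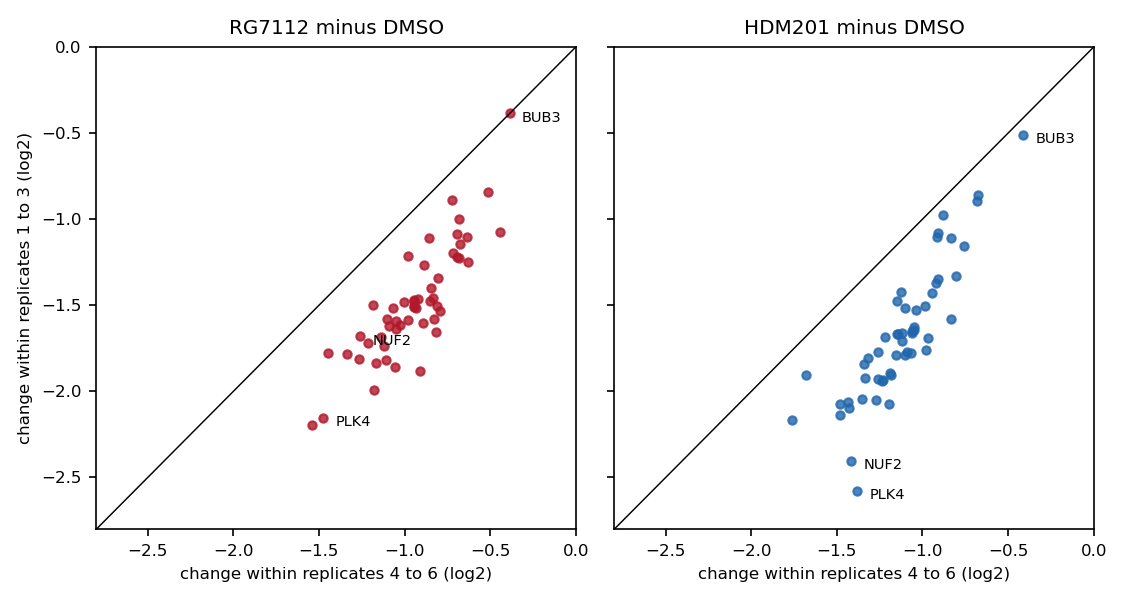
Change of each of the 53 genes (log2) within replicates 1 to 3 (vertical axis) and within replicates 4 to 6 (horizontal axis), for RG7112 minus DMSO on the left and HDM201 minus DMSO on the right, with the line of equal change. All points but BUB3 with RG7112 lie below the line, and PLK4 and NUF2 lie farthest down with HDM201.

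CDKN1A also stood apart between the sets. Its signals were 12.53 to 12.74 in RG7112 replicates 1 to 3 and 11.58 to 11.93 in RG7112 replicates 4 to 6, 12.64 to 12.82 in HDM201 replicates 1 to 3 and 11.81 to 12.09 in HDM201 replicates 4 to 6, and 8.94 to 9.13 in DMSO replicates 1 to 3 and 7.27 to 7.68 in DMSO replicates 4 to 6. So its level was higher in replicates 1 to 3 of every group, and its change with HDM201 was 3.66 within replicates 1 to 3 and 4.54 within replicates 4 to 6. The difference of its change between the sets did not pass, at -0.88 with HDM201 (adjusted p = 0.0728) and -0.79 with RG7112 (adjusted p = 0.283, limma). The part of this in the mitotic genes was not tested.

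The spread within groups was wider after treatment. The median SD of the 53 genes was 0.43 on RG7112 arrays (0.26 without replicate 3), 0.35 on HDM201 arrays and 0.12 on DMSO arrays. Over all probes it was 0.22 on RG7112 arrays, 0.17 on HDM201 arrays and 0.15 on DMSO arrays, so the members varied more than the typical probe on treated arrays and less on DMSO arrays. Within HDM201, 47 of 53 genes had all of replicates 1 to 3 below all of replicates 4 to 6 (13.3% of all probes). Within RG7112 this held for 26 of 53 genes (7.62% of all probes), and within DMSO for 2 of 53 (6.95% of all probes).

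Other mitotic genes outside the 53 were read from lists written for the comparison, with 49 of 54 listed genes measured. With RG7112 31 fell, 1 rose and 17 did not pass, and with HDM201 30 fell, 2 rose and 17 did not pass. Of all probes 9.61% fell and 7.9% rose with RG7112, and 9.64% fell and 9.16% rose with HDM201. The median change of the 49 genes was -0.73 with RG7112 and -0.62 with HDM201. Of 11 genes that control entry, 9 fell with each compound, and the largest changes were those of MYBL2, the B-MYB factor of late cell cycle transcription, at -1.67 ± 0.21 with RG7112 and -1.89 ± 0.21 with HDM201, and of CDC25A, a CDK-activating phosphatase, at -1.57 ± 0.18 and -1.89 ± 0.18. ENSA and ARPP19, the inhibitors of the phosphatase PP2A-B55, were the 2 that did not pass with either compound, in RG7112 at -0.19 ± 0.08 and -0.23 ± 0.09. A list for the MIS12 and RZZ complexes of the kinetochore also holds SPDL1, a subunit of neither. Of the 7 measured genes of this list 6 fell with each compound. SPDL1 changed by -1.36 ± 0.21 and DSN1 by -1.17 ± 0.11 with RG7112, and by -1.48 ± 0.21 and -1.46 ± 0.11 with HDM201. All 4 genes measured from a list of further cytokinesis genes, which also holds the spindle protein SPAG5, fell. Among them DIAPH3, a formin, changed by -1.86 ± 0.22 with RG7112 and -1.99 ± 0.22 with HDM201, and CEP55, a midbody protein, by -1.65 ± 0.28 and -1.90 ± 0.28. Both BIRC5 (survivin) and HASPIN, the partner and the histone kinase that position the passenger complex, fell, BIRC5 by -0.97 ± 0.14 and HASPIN by -0.93 ± 0.16 with RG7112, and by -1.26 ± 0.14 and -1.19 ± 0.16 with HDM201. Of 5 measured subunits of augmin, which branches spindle microtubules, 4 fell with each compound. HAUS1 changed by -0.87 ± 0.13 with RG7112 and -1.09 ± 0.13 with HDM201, HAUS6 by -0.81 ± 0.11 and -0.91 ± 0.11, and HAUS8 by -0.79 ± 0.10 and -1.05 ± 0.10.

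Subunits of the anaphase-promoting complex itself mostly did not pass. Of 16 subunits and partners measured, 5 fell and 11 did not pass with RG7112, and 4 fell, 1 rose and 11 did not pass with HDM201. Of all probes 9.61% fell with RG7112, and 9.64% fell and 9.16% rose with HDM201. The medians of the 16 were -0.17 and -0.16. The largest fall was that of UBE2S, the E2 enzyme that extends the ubiquitin chains which UBE2C starts, at -0.92 ± 0.12 with RG7112 and -1.07 ± 0.12 with HDM201. ANAPC15 changed by -0.73 ± 0.20 with RG7112 and ANAPC1 by -0.62 ± 0.16 with HDM201, and neither of these falls passed within replicates 4 to 6 alone (adjusted p = 0.171 for ANAPC1, limma). ANAPC16 rose by 0.29 ± 0.09 with HDM201 (adjusted p = 0.0202, limma) but did not pass without HDM201 replicate 3 (adjusted p = 0.0549), after each array's median was subtracted (0.0561), within replicates 1 to 3 (0.0829) or within replicates 4 to 6 (0.334, limma). Of 4 further checkpoint genes, TRIP13, the ATPase that recycles MAD2, fell by 0.99 with RG7112 and by 1.18 with HDM201. MAD1L1 (MAD1), the anchor of MAD2 at the kinetochore, rose by 0.34 ± 0.10 with RG7112 (adjusted p = 0.0238) and 0.36 ± 0.10 with HDM201 (adjusted p = 0.0135, limma). With RG7112 MAD1L1 did not pass without DMSO replicate 2, 3 or 4 or without RG7112 replicate 1 or 5, where the adjusted p was 0.0507 to 0.0659 (limma). Within replicates 4 to 6 alone MAD1L1 passed with neither compound (0.257 with RG7112 and 0.343 with HDM201), and within replicates 1 to 3 alone it did not pass with RG7112 (0.123, limma).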

How the data were processed

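RNA of OCI-AML3 cells was measured on 18 arrays, 6 per group, after extraction with a miRNA kit and WT Pico amplification and biotin labelling, per the labels' protocols. The authors deposited log2 values made with oligo and RMA, per the submitters' processing notes, with versions and genome build not given in the sources used here. RMA includes a quantile normalization, so values are relative to the other arrays. A table of platform annotation gave 17709 of 21448 probes exactly 1 gene symbol, 0 several and 3739 none here. All 18 columns were used. Array medians were 6.44 to 6.57, and precision is limited by the 6 arrays per group.

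A linear model with 3 group means was fitted to every probe in limma 3.58.1 (R 4.3.3) with its moderated variance. Each compound was set against DMSO, and HDM201 against RG7112. The Benjamini-Hochberg adjustment ran over all 21448 probes with a threshold of 0.05. A further fit with a mean per group and set (replicates 1 to 3, replicates 4 to 6) gave changes within the sets and their difference. The scripts were tested on simulated data. The members, the lists and the split into sets were chosen with earlier results of these data known, so no count over them is independent support for them.

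Genes described by their arrays follow a rule: a fixed set of 17 regulators, the 4 largest and 2 smallest changes per comparison with DMSO, and the members whose change differed between sets. From each other mitotic list the 2 largest changes and each gene that rose are named, and the rest stand as examples chosen after their values were seen. Deviations of same-numbered arrays from their group means correlated at 0.0168 to 0.440, over 0.1 in 16 of 18 cases. Those at or under 0.1 were RG7112 with DMSO for number 3 (0.0168) and HDM201 with DMSO for number 2 (0.0826). Since pairing was taken to need every correlation above 0.1, the fits have no block, and the labels do not say what a number shares. The alternatives tried were an intensity-dependent robust prior, array weights, no dim probes, 2 scalings, only the arrays compared, the replicate block, the sets as a term, mean probes per symbol, and leaving out each array. Some genes are not reported here.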

Additional observations from a re-analysis of the deposited data

Results flagged for a closer look

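Among the 165 groups of 6 arrays tested for a single array far from the rest, 15 had one whose gap to its neighbour, as a share of the group's range, exceeded the 95% critical value of Dixon's test. Chance alone gives such an array in about 1 group in 20 where the 6 values are draws from 1 normal population. Here the genes share the same arrays, and the treated groups hold replicate sets that stand apart. The rate is therefore only a rough guide. RG7112 replicate 3 was the array in 8 of the 15. It was the lowest of its group for CDC25C (5.24), DLGAP5 (6.94), CKAP2L (6.33), CDCA8 (7.13), SGO1 (5.58), PTTG1 (6.69), PRC1 (8.08) and GAS2L3 (4.79). For SGO1 the change with RG7112 was -1.87 with that array and -1.51 without it, and for GAS2L3 -1.59 with it and -1.21 without it.

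The other 7 lay in HDM201 and DMSO arrays. HDM201 replicate 1 was far below its group for CKAP2 (6.96) and SPC24 (7.84). DMSO replicate 1 was far below its group for SPC25 (7.33), BUB1 (9.77) and PTTG1 (8.50). DMSO replicate 3 was far above its group for BUB3 (11.07, where the next signal was 10.93) and far below it for MKI67 (11.06).

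The change with HDM201 differed between replicates 1 to 3 and replicates 4 to 6 for PLK4, by -1.20 (adjusted p = 0.0206), and for NUF2, by -0.98 (adjusted p = 0.0497, limma), both lower in replicates 1 to 3.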

How the results depend on the processing

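All 53 genes fell with both compounds, and 0 passed between the compounds, in every refit that left out 1 array. Over those refits the median change ran from -1.31 to -1.07 with RG7112, from -1.49 to -1.32 with HDM201 and from -0.33 (without RG7112 replicate 3) to -0.10 for HDM201 minus RG7112. Of 3074 values of single members against DMSO under the alternatives, 3069 kept direction and call. The 5 others no longer passed: CKAP2 with HDM201 within either set, and CKAP2, SGO2 and GAS2L3 with RG7112 within replicates 4 to 6. There each mean is that of 3 arrays, while the estimate of spread is shared by all 18. Of the marker genes, EPCAM with RG7112, which passed in neither case, was at -0.11 with all arrays and 0.052 within replicates 4 to 6.

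The difference of the HDM201 change between the sets was less stable. Of 53 genes, 2 passed with all arrays, 9 with array weights, 1 (PLK4) after each array's median was subtracted, 1 (PLK4) with the replicate block, and 0 (without DMSO replicate 2) to 4 (without RG7112 replicate 3) when 1 array was left out. For RG7112, 7 passed with array weights and 0 in each refit without 1 array. For the DMSO sets 0 passed in those refits. The share of all probes that passed was not counted for these alternatives, so the counts cannot be set against the rest of the array. The cause of these shifts was not tested.

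The replicate block left 53, 53 and 0 genes called in the 3 comparisons and, of the differences between sets, ended the call of NUF2 with HDM201 (adjusted p = 0.0516, limma). In 14 of 18 cases an array correlated best with the array of its own number. With the block 2632 probes fell and 2148 rose with RG7112, against 2062 and 1695 without it. No paired fit of the DMSO difference between sets was possible, since it lies between replicate numbers. Subtracting each array's median gave 2551 lower and 1268 higher probes with RG7112 and 2314 and 1634 with HDM201, against 2067 and 1965 for HDM201 as deposited. The arrays give no measure of depth, and 6 per group limit what could pass between the compounds.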
